A study of Mus musculus with 8 samples.

Results

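Liver RNA was examined for the genes of antigen presentation, by which cells display peptides to T cells on major histocompatibility complex (MHC) molecules. The members were all names of the gene count table that begin with H2-, the mouse MHC, together with B2m, Cd74, Ciita, Nlrc5, Tap1, Tap2, Tapbp, Psmb8, Psmb9, Psmb10 and Erap1. Of 35976 genes in the table, 51 carried such a name and 40 of these reached a summed count of at least 15 over the 8 libraries. They were 20 class I genes, 11 class II genes, 8 genes of peptide processing, loading and regulation, and H2-Ke6, which lies in the MHC region but encodes a steroid dehydrogenase and was counted apart. The samples were 3 livers labelled OPA1_LKO, in which Opa1 was deleted in hepatocytes, and 5 livers labelled CTRL. All came from mice on a high fat diet, so the diet is common to both groups. Opa1 encodes the GTPase that fuses the inner mitochondrial membrane. The labels do not give the Cre driver of the deletion, the age or sex of the mice, or whether each sample is a separate animal, so p-values measure only how these samples vary, which may be technical in part.

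Class I molecules are made by nearly all nucleated cells and show peptides cut from proteins inside the cell. The peptides are cut by the proteasome, whose catalytic subunits are exchanged for immunoproteasome subunits under interferon-gamma, pumped into the endoplasmic reticulum by the TAP transporter, trimmed there and loaded onto a heavy chain paired with beta-2 microglobulin. Class II molecules are made mainly by B cells, dendritic cells and macrophages and show peptides from material taken up by the cell. In liver, hepatocytes make class I, whereas class II comes mostly from resident and recruited immune cells, which are a minority of the tissue.

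The libraries held 16076404 to 20471271 expected counts on genes, and 14036 genes passed the filter on low counts. For comparisons between libraries the unit is CPM, counts per fixed library size after scaling by the trimmed mean of M-values (TMM), and for comparisons between genes it is TPM, which also corrects for length. Genes with an adjusted p under 0.05 in the quasi-likelihood test of edgeR (Benjamini-Hochberg over all tested genes) are called changed. By this measure 846 genes (6.03%) passed, of which 469 (3.34%) rose and 377 (2.69%) fell in OPA1_LKO. With upper-quartile scaling the split was 547 higher and 270 lower, and on log2(TPM + 1) it was 504 higher and 107 lower. Opa1 itself had 24.7 to 34.4 CPM in OPA1_LKO livers and 39.9 to 57.6 CPM in CTRL livers (log2 fold change −0.63 ± 0.17 SE, edgeR adjusted p = 0.0539). Hepatocyte markers summed to 67216 to 87914 CPM in OPA1_LKO livers and 56010 to 97850 CPM in CTRL livers, so hepatocyte RNA was abundant in every library. These sums do not show whether RNA of other tissues was present. A pair of control libraries stood apart. CTRL replicate 1 held 123 CPM summed over 8 neuron and myelin genes, against 0.412 to 3.78 CPM in the other libraries. CTRL replicate 3 held 217 CPM summed over 10 genes of intestinal epithelium, against 0.212 to 3.29 CPM in the others. Both lists were written after these values were seen. Values without one or both of these libraries are given below for Psmb8, Psmb9, H2-Q2 and the class II genes.

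Of the 40 members, 37 passed the filter and were tested. The other 3, H2-Bl, H2-T3 and H2-Eb2, were too low in most libraries. The 11 names under the minimum of 15 counts were H2-Ea-ps, H2-M1, H2-M9, H2-M11 and the 5 genes H2-M10.1 to H2-M10.5, all 9 with no count in any library, which allows up to 3 counts in each (0.135 to 0.206 CPM, counting error only), H2-M10.6 with 1 count and H2-M5 with 6 counts in all. Among the 37 tested members, 2 were changed, both lower in OPA1_LKO, beside 6.03% of all tested genes changed and 2.69% lower. The median log2 fold change of the 37 was −0.06, beside −0.03 over all tested genes.

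**Figure D1:**
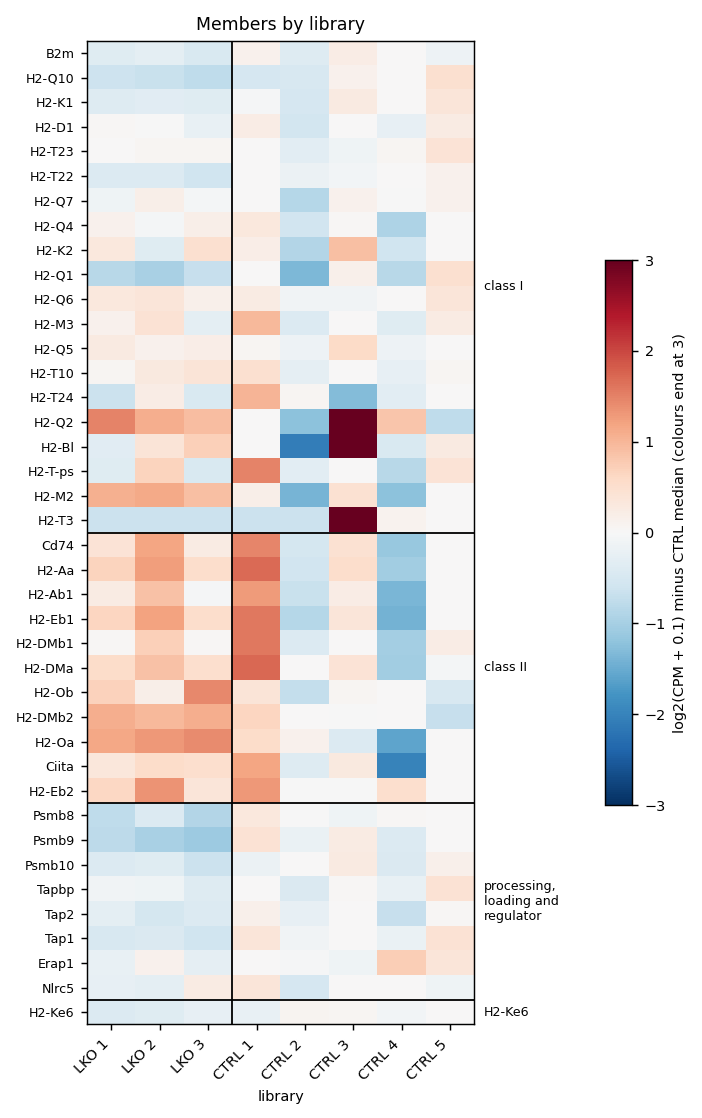
Level of each of the 40 members (rows, grouped by role and ordered by mean TPM) in each library (columns, OPA1_LKO left of CTRL), as log2(CPM + 0.1) minus the median of the CTRL libraries. Red is above and blue below that median. Most class II rows are red in the OPA1_LKO libraries and in CTRL replicate 1 and blue in CTRL replicate 4, Psmb8 and Psmb9 are blue in all 3 OPA1_LKO libraries, and H2-T3, H2-Q2 and H2-Bl are darkest in CTRL replicate 3.

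All 3 OPA1_LKO livers had fewer transcripts of Psmb8 and Psmb9, the immunoproteasome subunits that take the places of Psmb5 and Psmb6, than any CTRL liver on the CPM scale. On the TPM scale both overlapped between groups, with Psmb8 at 38.3 TPM in OPA1_LKO replicate 2, against 33.3 and 37.6 TPM in CTRL replicates 3 and 4, and Psmb9 at 28.7 TPM in OPA1_LKO replicate 1, against 28.0 TPM in CTRL replicate 4. In the count fit, Psmb9 was lower by 49.7% and Psmb8 by 39.1%. Tap1, a subunit of the TAP transporter, stood apart in CPM but not in TPM, and missed the threshold. Psmb9, Tap1, Psmb8 and Tap2 lie side by side on mouse chromosome 17 in that order (RefSeq, GRCm38.p6), with Psmb9 at 34182030 to 34187330, Tap1 at 34187556 to 34197225, Psmb8 at 34198195 to 34201454 and Tap2 at 34204479 to 34216321. Psmb9 is read on the opposite strand to Tap1, and 225 bases separate their starts, so that their promoter windows overlap.

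Promoter windows of 250 bases before to 50 after the annotated start are printed below for the members the results turn on and for a class I and a class II chain set beside them. Capitals mark matches, on either strand, to 5 short motifs: GAAA and again GAAA with 2 bases between (interferon response element core), TTCNNNGAA (gamma-activated sequence), GGGA and CC with 4 bases between (kappa-B-like), CCAAT (Y box) and TGACGNNA (CRE-like or X2 box). They are given 5′ to 3′ on the strand of the named gene, all from chromosome 17 of RefSeq GRCm38.p6: chr17:34187306-34187605 on the plus strand for Tap1 (the region shared with Psmb9), chr17:34197945-34198244 on the plus strand for Psmb8, chr17:36042693-36042992 on the minus strand for H2-T22, chr17:34000298-34000597 on the minus strand for H2-K1 and chr17:34287774-34288073 on the minus strand for H2-Aa.
Tap1: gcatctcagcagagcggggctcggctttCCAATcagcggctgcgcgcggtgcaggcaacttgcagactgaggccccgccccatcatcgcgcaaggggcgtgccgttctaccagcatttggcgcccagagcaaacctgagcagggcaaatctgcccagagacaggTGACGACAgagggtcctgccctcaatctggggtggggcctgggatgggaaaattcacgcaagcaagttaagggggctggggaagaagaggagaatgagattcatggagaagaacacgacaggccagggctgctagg
Psmb8: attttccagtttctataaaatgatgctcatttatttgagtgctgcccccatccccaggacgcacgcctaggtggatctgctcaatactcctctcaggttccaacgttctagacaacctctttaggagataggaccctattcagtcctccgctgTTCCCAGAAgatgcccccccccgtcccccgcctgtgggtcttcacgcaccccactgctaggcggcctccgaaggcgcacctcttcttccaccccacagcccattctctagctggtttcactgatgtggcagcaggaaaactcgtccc
H2-T22: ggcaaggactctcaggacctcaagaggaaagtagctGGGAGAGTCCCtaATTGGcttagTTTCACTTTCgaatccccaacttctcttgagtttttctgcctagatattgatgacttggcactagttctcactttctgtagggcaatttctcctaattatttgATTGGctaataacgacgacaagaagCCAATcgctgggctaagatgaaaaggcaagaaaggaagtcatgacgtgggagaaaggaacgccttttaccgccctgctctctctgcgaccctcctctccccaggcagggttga
H2-K1: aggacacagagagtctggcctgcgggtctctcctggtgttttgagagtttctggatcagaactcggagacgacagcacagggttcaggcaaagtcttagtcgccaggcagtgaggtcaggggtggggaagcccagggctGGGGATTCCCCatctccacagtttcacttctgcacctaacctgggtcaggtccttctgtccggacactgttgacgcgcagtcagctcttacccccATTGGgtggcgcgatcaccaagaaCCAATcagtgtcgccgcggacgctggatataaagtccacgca
H2-Aa: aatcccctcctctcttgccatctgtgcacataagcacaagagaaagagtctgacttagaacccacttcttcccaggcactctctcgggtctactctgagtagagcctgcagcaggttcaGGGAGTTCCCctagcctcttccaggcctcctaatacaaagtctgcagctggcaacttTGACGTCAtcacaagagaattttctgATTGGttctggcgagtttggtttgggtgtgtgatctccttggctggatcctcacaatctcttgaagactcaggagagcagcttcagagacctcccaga
The Psmb8 window held TTCCCAGAA 97 bases before the start, a match to the gamma-activated sequence. The window between Psmb9 and Tap1 held a CCAAT match 222 bases and a TGACGNNA match 86 bases before the Tap1 start. Only the H2-T22 window among these 5 matched the interferon response element core, 191 bases before its start and beside kappa-B-like and CCAAT matches. The H2-K1 window held overlapping kappa-B-like matches on both strands, 110 and 111 bases before the start. RefSeq promoter windows were found for 29 of the 40 members, 31 windows in all. The interferon response element core occurred in 4 of these 31 windows and in 3.43% of all 32817 windows, TTCNNNGAA in 3 and in 8.29%, the kappa-B-like motif in 12 and in 20.7%, CCAAT in 25 and in 37.4%, and TGACGNNA in 5 and in 6.60%. A match describes letters in the window and not a site that is used.

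Psmb9 had 17.8, 15.8 and 14.5 CPM in OPA1_LKO replicates 1 to 3, against 41.6, 27.0, 36.4, 23.3 and 30.9 CPM in CTRL replicates 1 to 5. The highest OPA1_LKO liver was below the lowest CTRL liver, and the log2 fold change was −0.99 ± 0.20 (SE; edgeR adjusted p = 0.0188). Psmb8 had 26.6, 33.8 and 24.3 CPM in OPA1_LKO replicates 1 to 3, against 55.9, 44.3, 41.0, 45.7 and 44.9 CPM in CTRL replicates 1 to 5. These groups did not overlap either, and the log2 fold change was −0.72 ± 0.15 (SE; edgeR adjusted p = 0.0268). Psmb10, the immunoproteasome counterpart of Psmb7, had 33.0, 34.3 and 27.8 CPM in OPA1_LKO livers and 38.6, 43.9, 53.0, 32.7 and 49.0 CPM in CTRL livers. CTRL replicate 4 lay among the OPA1_LKO livers, and the log2 fold change of −0.45 ± 0.17 did not pass (edgeR adjusted p = 0.146).

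Tap1 had 18.1, 18.8 and 16.8 CPM in OPA1_LKO livers, against 32.3, 23.5, 25.2, 21.9 and 34.3 CPM in CTRL livers. All 3 OPA1_LKO values lay below all 5 CTRL values, with a log2 fold change of −0.62 ± 0.17 (edgeR adjusted p = 0.0618, and 0.0202 with DESeq2). Tap2, its partner in the transporter, had 19.99, 16.96 and 18.3 CPM in OPA1_LKO livers and 27.0, 20.5, 24.4, 15.02 and 24.9 CPM in CTRL livers. The groups overlapped through CTRL replicate 4, and the log2 fold change was −0.28 ± 0.19 (edgeR adjusted p = 0.392). Tapbp encodes tapasin, which holds the heavy chain at the transporter, and had 69.6, 68.6 and 57.0 CPM in OPA1_LKO livers against 74.7, 55.3, 76.9, 64.1 and 101 CPM in CTRL livers. Erap1, the peptidase that trims peptides in the endoplasmic reticulum, had 24.9, 31.8 and 23.9 CPM in OPA1_LKO livers against 28.9, 28.4, 26.6, 48.4 and 37.2 CPM in CTRL livers. Both overlapped between groups, with log2 fold changes of −0.19 ± 0.19 for Tapbp (edgeR adjusted p = 0.576) and −0.34 ± 0.21 for Erap1 (edgeR adjusted p = 0.370). Nlrc5, the transactivator of class I promoters, had 18.8, 18.1 and 26.4 CPM in OPA1_LKO livers and 28.8, 15.8, 22.5, 22.3 and 20.3 CPM in CTRL livers. Its log2 fold change was −0.06 ± 0.20 (edgeR adjusted p = 0.890), and its sign turned positive with upper-quartile scaling and on both TPM scales.

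All 8 processing, loading and regulator genes had a negative log2 fold change, with a median of −0.39, beside 53.1% of all tested genes with a negative one. 3 of the 8 did not overlap between groups, all lower, where 8.41% of all tested genes did so. Leaving out libraries affected the calls. Psmb9 was not called without any 1 of the 3 OPA1_LKO libraries (edgeR adjusted p = 0.0711 without replicate 1, 0.0540 without replicate 2 and 0.101 without replicate 3). Psmb8 was not called without OPA1_LKO replicate 1 or 3 (edgeR adjusted p = 0.142 for each) nor without CTRL replicate 2, 4 or 5 (0.0531, 0.0601 and 0.0564). Without CTRL replicates 1 and 3 together, both remained called, at log2 fold changes of −0.75 for Psmb9 and −0.67 for Psmb8 (edgeR adjusted p = 0.0117 and 0.0174), where 10.4% of all genes were lower. This pair was chosen after the data were seen. It held the highest CTRL values of Psmb9, and both the highest and the lowest CTRL value of Psmb8. Leaving it out narrows the CTRL spread of both genes by construction, so these calls are no added support. On log2(TPM + 1) neither passed (limma adjusted p = 0.117 for Psmb9 and 0.240 for Psmb8). On that scale the median of all genes was 0.126 above its value in the count fit, and relative to the median Psmb9 stood at −0.88 and Psmb8 at −0.63.

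**Figure D2:**
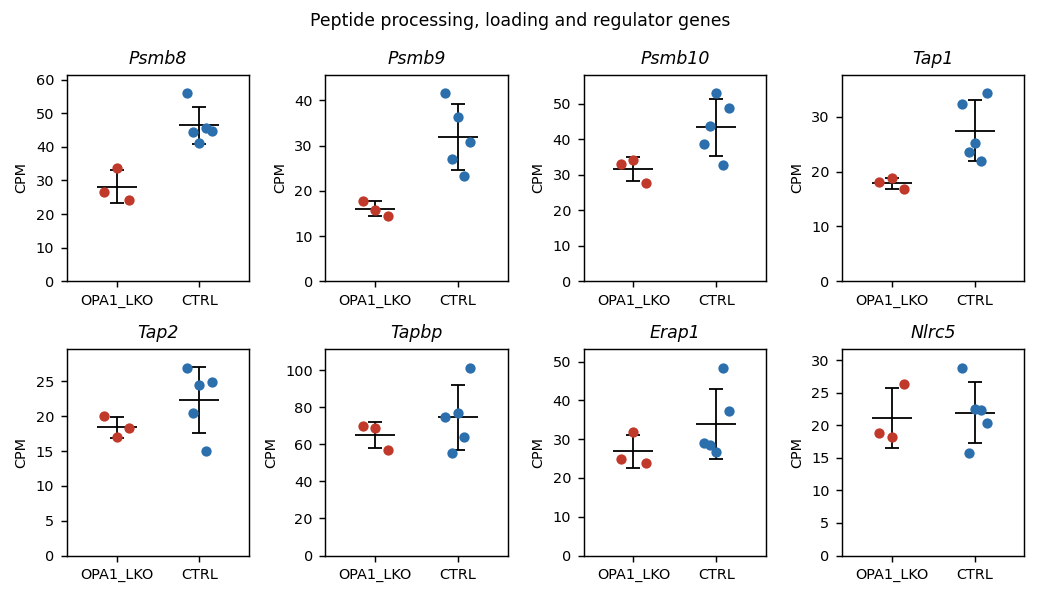
CPM of the 8 processing, loading and regulator genes in each library (points), OPA1_LKO left and CTRL right, with the group mean (bar) and SD (whiskers). All OPA1_LKO points of Psmb8, Psmb9 and Tap1 lie below all CTRL points, and those of the other 5 genes overlap them.

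Set against the constitutive subunits on the TPM scale, the immunoproteasome subunits Psmb8, Psmb9 and Psmb10 made up 12.2%, 13.7% and 11.3% of the TPM of the 6 catalytic subunits in OPA1_LKO livers. In CTRL livers they made up 19.2%, 16.1%, 18.4%, 15.4% and 20.8%. The shares averaged 12.4 ± 1.24% in OPA1_LKO livers and 18.0 ± 2.24% in CTRL livers (SD, n = 3 and 5), and the groups did not overlap. The constitutive subunits Psmb5, Psmb6 and Psmb7 together had 613 ± 70.4 TPM in OPA1_LKO livers and 588 ± 119.7 TPM in CTRL livers (SD, n = 3 and 5). The immunoproteasome subunits together had 93.0, 100.7 and 68.0 TPM in OPA1_LKO livers, against 178.6, 129.8, 115.0, 91.1 and 130.2 TPM in CTRL livers, and these sums overlapped through CTRL replicate 4. In the list of 7 proteasome activator and constitutive genes, 0 were changed in edgeR, 1 was lower at an unadjusted p under 0.05, and all 7 log2 fold changes were negative, with a median of −0.18. Psme1 and Psme2, the subunits of the interferon-inducible proteasome activator, had log2 fold changes of −0.18 (edgeR adjusted p = 0.517) and −0.23 (0.276).

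**Figure D3:**
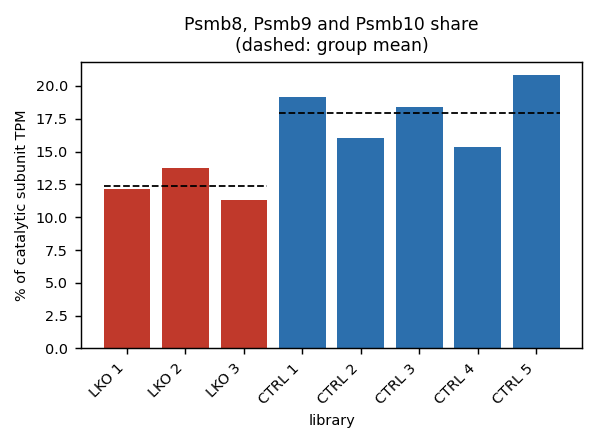
Share of Psmb8, Psmb9 and Psmb10 in the summed TPM of these 3 genes and Psmb5, Psmb6 and Psmb7, for each library, with the group mean dashed. The OPA1_LKO livers lie between 11.3% and 13.7%, and the CTRL livers between 15.4% and 20.8%.

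The class I chains themselves did not pass the test. Of 18 tested class I members, 0 were changed in edgeR, at a median log2 fold change of −0.04. At an unadjusted p under 0.05, 2 were lower and 1 was higher, beside 12.3% and 11.5% of all tested genes. DESeq2 called 2 lower, H2-T22 and H2-Q10, beside 6.06% of all genes, limma on log2(TPM + 1) called 1 higher, H2-M2, beside 3.59%, and limma-voom called 0. Heavy chains of this family are alike in sequence, and RSEM divides shared reads among them by estimation, so the split between H2-K1, H2-D1 and the Q and T genes is uncertain.

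By TPM, H2-Q10 was the most abundant heavy chain, with 1207, 1204 and 952 TPM in OPA1_LKO livers and 1393, 1244, 1497, 1381 and 2231 TPM in CTRL livers. It encodes a class I molecule that the liver secretes. On the CPM scale it had 1338, 1311 and 1220 in OPA1_LKO livers, against 1463, 1485, 2279, 2072 and 2874 in CTRL livers. The groups did not overlap, but the log2 fold change of −0.66 ± 0.24 missed the threshold (edgeR adjusted p = 0.136, DESeq2 adjusted p = 0.0453). H2-Q10 made up 43.0 ± 0.592% of the heavy chain TPM in OPA1_LKO livers and 50.1 ± 4.89% in CTRL livers (SD, n = 3 and 5). These shares overlapped through CTRL replicate 1, at 41.6%, while the other CTRL livers had 51.1% to 54.1%.

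H2-K1, a classical class I chain, had 833, 870 and 851 CPM in OPA1_LKO livers, against 1070, 777, 1322, 1097 and 1407 CPM in CTRL livers. CTRL replicate 2 was the lowest of all and the other CTRL livers were above the OPA1_LKO livers, with a log2 fold change of −0.41 ± 0.20 (edgeR adjusted p = 0.245). H2-D1, the other classical chain here, had 655, 628 and 545 CPM in OPA1_LKO livers, against 738, 436, 634, 532 and 749 CPM in CTRL livers. Its groups overlapped fully, the log2 fold change was −0.02 ± 0.20 (edgeR adjusted p = 0.963), and its sign changed with the scaling. B2m, the light chain common to all of these, had 1490, 1561 and 1411 CPM in OPA1_LKO livers, against 2104, 1458, 2240, 1922 and 1721 CPM in CTRL livers. CTRL replicate 2 lay within the OPA1_LKO range, and the log2 fold change was −0.34 ± 0.18 (edgeR adjusted p = 0.278). Summed over heavy chains, class I had 2765, 2810 and 2240 TPM in OPA1_LKO livers, against 3346, 2433, 2922, 2630 and 4127 TPM in CTRL livers, which overlapped.

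Among the nonclassical chains, H2-T22, a ligand of gamma-delta T cells, had 99.0, 99.2 and 87.2 CPM in OPA1_LKO livers, against 133, 117, 124, 132 and 145 CPM in CTRL livers. The groups did not overlap in CPM, and the log2 fold change was −0.45 ± 0.13 (edgeR adjusted p = 0.0667, DESeq2 adjusted p = 0.00359). In TPM they overlapped, at 58.18 to 77.66 in OPA1_LKO livers and 69.98 to 107.87 in CTRL livers. On log2(TPM + 1) H2-T22 did not pass (limma adjusted p = 0.469). H2-T10, its near copy, stood at 0.23 ± 0.23 with overlapping groups (edgeR adjusted p = 0.587). H2-T23 encodes Qa-1, which NK cells read through an inhibitory receptor, and had 227 to 234 CPM in OPA1_LKO livers and 181 to 296 CPM in CTRL livers (log2 fold change 0.02 ± 0.17, edgeR adjusted p = 0.953). H2-M3, which binds formylated peptides such as those of bacteria and mitochondria, had 2.31 to 3.87 CPM in OPA1_LKO livers and 2.13 to 5.68 CPM in CTRL livers (−0.06 ± 0.35, edgeR adjusted p = 0.932). The Qa-2 genes H2-Q6 and H2-Q7, whose reads are hard to tell apart, stood at 0.19 ± 0.22 and 0.08 ± 0.21. H2-M2 was low in every library, with 1.06, 1.12 and 0.947 CPM in OPA1_LKO livers, against 0.531, 0.112, 0.671, 0.137 and 0.458 CPM in CTRL livers. It was the 1 class I member with all OPA1_LKO livers above all CTRL livers, where 1123 of all 14036 tested genes did so and 16.4% did not overlap in either direction (log2 fold change 1.42 ± 0.52, edgeR adjusted p = 0.136). Of the class I members not yet given, H2-Q1 stood at −0.67 ± 0.37 (edgeR adjusted p = 0.297), and H2-K2, H2-Q4, H2-Q5, H2-T24 and H2-T-ps lay between −0.40 and 0.25 with overlapping groups. H2-Ke6, which is no antigen presentation gene, had 66.6, 69.5 and 75.5 CPM in OPA1_LKO livers, against 76.2, 94.3, 92.7, 84.4 and 89.2 CPM in CTRL livers. Its groups did not overlap in CPM, and the log2 fold change was −0.31 ± 0.12 (edgeR adjusted p = 0.169). In TPM they overlapped, at 95.9 to 104.1 in OPA1_LKO livers and 91.8 to 128.5 in CTRL livers.

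**Figure D4:**
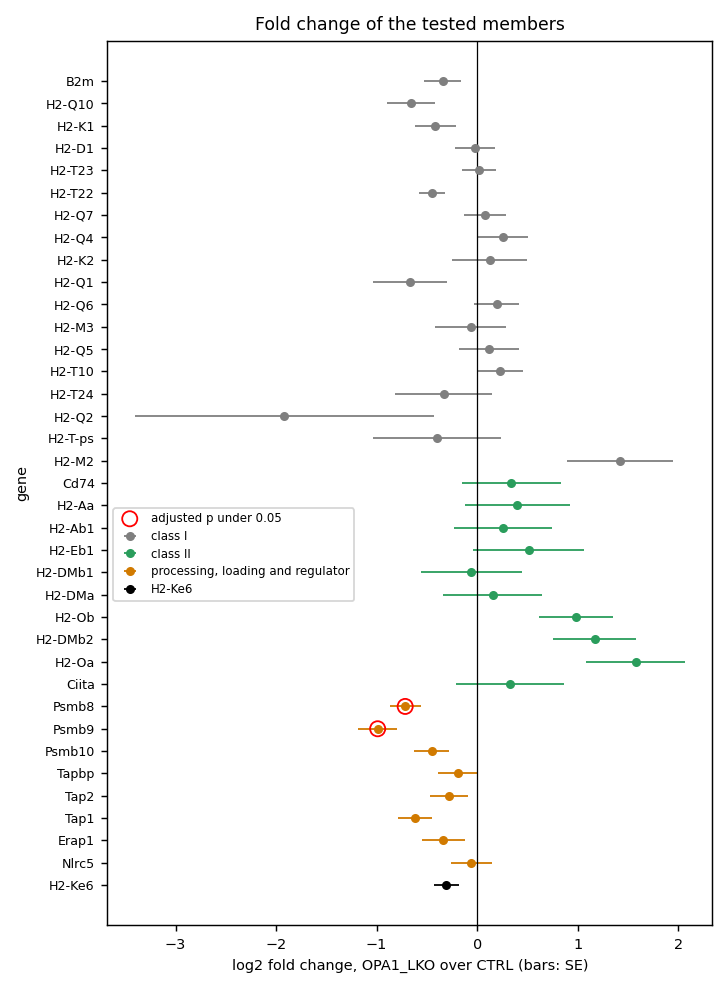
Log2 fold change, OPA1_LKO over CTRL, of the 37 tested members with the SE as bars, coloured by role, with the members past an edgeR adjusted p of 0.05 ringed. Only Psmb8 and Psmb9 are ringed, all 8 processing genes lie left of 0, and 9 of 10 class II genes lie right of it.

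Some class I genes were high in a single library. H2-T3 encodes the thymus leukaemia antigen, which in mice is known from the thymus and the intestinal epithelium. It had no count in the 3 OPA1_LKO livers and 0 to 1 count in 4 CTRL livers, but 121 counts (6.77 CPM) in CTRL replicate 3. H2-Q2 had 0.923, 0.675 and 0.592 CPM in OPA1_LKO livers, against 0.266, 0.0562, 12.9, 0.549 and 0.115 CPM in CTRL livers, again with CTRL replicate 3 alone high. Its log2 fold change of −1.92 ± 1.49 (edgeR adjusted p = 0.471) became 1.61 without that library. H2-Bl, a pseudogene, had 0.231 to 0.592 CPM in OPA1_LKO livers and 3.30 CPM in CTRL replicate 3, with 0 to 0.401 CPM in the other CTRL livers. CTRL replicate 3 is the library with 217 CPM of intestinal epithelium genes, among them Sis at 49.9 CPM and Vil1 at 39.7 CPM. In the other libraries the defining gene Cdx2 was at 0 counts in all 7, and Sis and Vil1 were at most 0.823 and 0.765 CPM. Their part in these class I values was not tested.

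Class II levels varied widely among the CTRL livers. Of 10 tested class II members, 0 were changed in edgeR. At an unadjusted p under 0.05, 3 were higher and 0 lower, beside 11.5% and 12.3% of all tested genes. DESeq2 called 1 higher, H2-Oa, beside 5.99% of all genes, limma on log2(TPM + 1) called 2, H2-Oa and H2-DMb2, beside 3.59%, and limma-voom called 0. Of the 10, 9 log2 fold changes were positive, with a median of 0.37, beside 46.9% of all tested genes with a positive one. In bulk tissue, more cells of a type and more RNA per cell cannot be told apart.

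H2-Aa and H2-Ab1 encode the alpha and beta chains of I-A, and H2-Eb1 the beta chain of I-E. H2-Aa had 79.1, 120 and 71.4 CPM in OPA1_LKO livers, against 162, 33.4, 72.3, 24.1 and 49.8 CPM in CTRL livers. H2-Ab1 had 57.8, 89.8 and 47.5 CPM in OPA1_LKO livers, against 117, 30.5, 56.9, 18.8 and 48.4 CPM in CTRL livers. H2-Eb1 had 71.1, 105 and 65.0 CPM in OPA1_LKO livers, against 136, 24.9, 58.5, 16.9 and 45.3 CPM in CTRL livers. For each chain CTRL replicate 1 was the highest of all libraries and CTRL replicate 4 the lowest. The log2 fold changes were 0.40 ± 0.52 for H2-Aa, 0.26 ± 0.49 for H2-Ab1 and 0.51 ± 0.55 for H2-Eb1 (edgeR adjusted p = 0.684, 0.784 and 0.609). Without CTRL replicate 1 they were 1.004, 0.75 and 1.14 (0.0763, 0.176 and 0.0697 for edgeR adjusted p). The lowest values with a single library left out were 0.14, −0.047 and 0.27. Together the 3 chains had 225, 347 and 171 TPM in OPA1_LKO livers, against 475, 90.8, 149, 49.0 and 134 TPM in CTRL livers, a span of 9.70-fold among the CTRL livers. The log2 ratio of the mean sums was 0.46 over the 8 livers, 1.23 when CTRL replicate 1 was left out and 1.44 when CTRL replicate 3 was left out as well. With OPA1_LKO replicate 2 alone left out, the ratio was 0.14.

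Cd74, the invariant chain that guides class II to endosomes, was likewise highest in CTRL replicate 1 and lowest in CTRL replicate 4, with 152, 260 and 137 CPM in OPA1_LKO livers, against 318, 80.3, 158, 52.5 and 115 CPM in CTRL livers (log2 fold change 0.34 ± 0.49, edgeR adjusted p = 0.715). Ciita, the transactivator of class II promoters, had 2.49, 2.92 and 2.78 CPM in OPA1_LKO livers, against 4.57, 1.46, 2.40, 0.412 and 1.95 CPM in CTRL livers. CTRL replicate 1 was again highest and CTRL replicate 4 lowest (log2 fold change 0.33 ± 0.54, edgeR adjusted p = 0.747). Without CTRL replicate 1 the log2 fold change was 0.85 for Cd74 and 0.80 for Ciita (edgeR adjusted p = 0.132 and 0.250). Over the 11 class II members, CTRL replicate 1 was the highest CTRL liver for all 11 and CTRL replicate 4 the lowest for 8.

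H2-DMa and H2-DMb1 encode the H2-DM exchange factor that loads peptides on class II, and their log2 fold changes were 0.15 ± 0.49 and −0.06 ± 0.50 (edgeR adjusted p = 0.880 and 0.958). H2-Oa and H2-Ob encode H2-O, which inhibits H2-DM and is known from B cells and dendritic cells. H2-Oa had 1.02, 1.12 and 1.24 CPM in OPA1_LKO livers, against 0.637, 0.449, 0.280, 0.0686 and 0.401 CPM in CTRL livers. All OPA1_LKO livers were above all CTRL livers, as in 1123 of all 14036 tested genes, with a log2 fold change of 1.58 ± 0.49 (edgeR adjusted p = 0.0895). H2-DMb2, another H2-DM beta chain, had 0.831, 0.765 and 0.829 CPM in OPA1_LKO livers, against 0.584, 0.337, 0.335, 0.343 and 0.172 CPM in CTRL livers. Its groups did not overlap either, with a log2 fold change of 1.17 ± 0.41 (edgeR adjusted p = 0.125). H2-Ob had 2.82, 1.93 and 4.79 CPM in OPA1_LKO livers, against 2.28, 1.01, 1.79, 1.72 and 1.20 CPM in CTRL livers. CTRL replicate 1 was above the lowest OPA1_LKO liver, and the log2 fold change was 0.98 ± 0.37 (edgeR adjusted p = 0.140). H2-Eb2, which was not tested, had 0.178 to 0.450 CPM in OPA1_LKO livers and 0.112 to 0.425 CPM in CTRL livers.

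These class II values rest in part on single controls. The median log2 fold change of the 10 genes was 0.93 without CTRL replicate 1 and 1.22 without CTRL replicates 1 and 3. Without CTRL replicate 1, H2-Oa and H2-DMb2 were called higher (edgeR adjusted p = 0.0328 and 0.0426), where 6.65% of all genes were called higher. Without CTRL replicates 1 and 3 together, 7 of the 10 were called higher, namely Cd74, H2-Aa, H2-Eb1, H2-DMa, H2-DMb2, H2-Oa and H2-Ob, where 10.9% of all genes were called higher. Leaving out this pair of libraries was chosen after the data were seen. For Cd74, H2-Aa, H2-Ab1, H2-Eb1, H2-DMa, H2-Ob and Ciita this pair held the highest CTRL values. Leaving the pair out raises the fold change and narrows the CTRL spread of those genes by construction. CTRL replicate 1 was also the highest CTRL liver for H2-Oa and H2-DMb2, so leaving it out raises their fold changes by construction too. Calls of class II genes in either fit without CTRL replicate 1 are therefore no support for a rise.

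**Figure D5:**
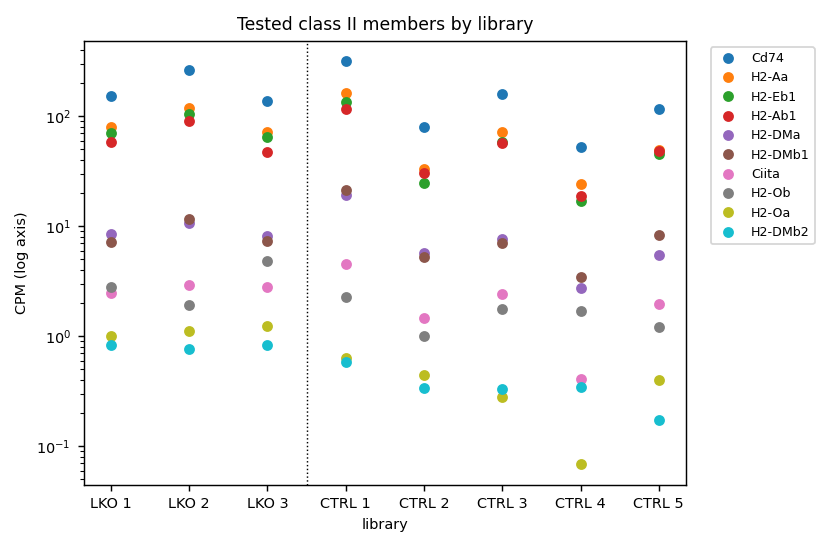
CPM on a log axis of the 10 tested class II members in each library, OPA1_LKO left of the dotted line and CTRL right of it. CTRL replicate 1 is the highest of the CTRL livers for all 10 genes, and for H2-Oa and H2-DMb2 all OPA1_LKO points lie above all CTRL points.

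Markers of the cells that make class II were read in the same libraries. Over 6 leukocyte genes the summed level was 67.0 to 80.0 CPM in OPA1_LKO livers, and 163 CPM in CTRL replicate 1 against 37.2 to 61.5 CPM in the other CTRL livers. CTRL replicate 4 was again the lowest. The monocyte and macrophage sum ranked the libraries as the summed class II TPM did, except that CTRL replicates 3 and 5 changed places (16.3 and 19.5 CPM). In the leukocyte sum OPA1_LKO replicates 1 and 3 changed places as well. The Kupffer, dendritic and B cell sums ranked the libraries otherwise. The Kupffer cell genes summed to 122 to 171 CPM in OPA1_LKO livers, and to 678 CPM in CTRL replicate 1 against 135 to 315 CPM in the other CTRL livers. The genes of recruited monocytes and macrophages summed to 32.7 to 50.9 CPM in OPA1_LKO livers and to 82.6 CPM in CTRL replicate 1, against 6.38 to 19.5 CPM in the other CTRL livers. The dendritic cell genes summed to 15.3 to 22.7 CPM in OPA1_LKO livers and 8.64 to 22.2 CPM in CTRL livers, and the B cell genes to 6.61 to 16.99 CPM in OPA1_LKO livers and 5.35 to 9.28 CPM in CTRL livers. In each of the leukocyte, Kupffer, monocyte, dendritic and B cell lists 0 genes were changed in edgeR, with median log2 fold changes of −0.11 over 6 leukocyte, −0.68 over 6 Kupffer, 0.36 over 6 monocyte, 0.93 over 6 dendritic and 0.68 over 4 B cell genes. At an unadjusted p under 0.05, 1 Kupffer gene was lower, and 1 dendritic and 1 B cell gene were higher. Their part in the class II values was not tested. Among T cell genes 0 of 5 were changed, with 0 at an unadjusted p under 0.05 and a median of 0.37. Among NK cell genes 1 of 4 was changed, beside 6.03% of all tested genes. This was Klrd1, a part of the receptor for Qa-1, which was higher (log2 fold change 1.46, edgeR adjusted p = 0.0435). It was called without CTRL replicate 1, and not when any other library was left out (0.0701 to 0.181). Sinusoidal endothelium and stellate cell lists had 0 of 6 changed each, with 0 and 2 higher at an unadjusted p under 0.05. Of the 6 bile duct genes 3 were higher, Krt7, Sox9 and Spp1 (log2 fold changes 2.04, 1.72 and 2.76, edgeR adjusted p = 0.0192, 0.0161 and 0.00062), beside 3.34% of all tested genes, and the list summed to 140.5 to 204 CPM in OPA1_LKO livers and 17.5 to 69.6 CPM in CTRL livers. Most of that sum in OPA1_LKO livers was Spp1, with 122 to 176 CPM in OPA1_LKO livers and 13.9 to 33.1 CPM in CTRL livers. Krt19, Epcam and Cldn7 did not pass (log2 fold changes −0.50, 0.96 and 0.43). Each was highest in CTRL replicate 3, at 22.3, 16.8 and 6.32 CPM. In the other CTRL livers each was lower than in every OPA1_LKO liver, where the lowest values were 2.13, 5.15 and 1.18 CPM. CTRL replicate 3 alone thus kept the groups from standing apart in these genes, which was seen after the values were read. Of the 6 hepatocyte genes 1 was higher, Tat (log2 fold change 1.61, edgeR adjusted p = 0.0095), beside 3.34% of all tested genes.

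The remaining genes of the pathway were read from lists of partners, regulators and interferon-gamma targets, since interferon-gamma is the main inducer of the immunoproteasome and of class II. Of 18 tested interferon-gamma genes, 3 were lower and 0 higher, 16 log2 fold changes were negative and the median was −0.53, beside 2.69% of all tested genes lower, 3.34% higher and 53.1% negative. The 3 were Irgm1, Iigp1 and Gbp7, all GTPases induced by interferon. Irgm1 had 25.3, 32.9 and 21.2 CPM in OPA1_LKO livers, against 62.7, 58.8, 37.6, 55.3 and 64.6 CPM in CTRL livers (log2 fold change −1.07, edgeR adjusted p = 0.0180). Iigp1 had 154, 173 and 149 CPM in OPA1_LKO livers, against 319, 331, 201, 404 and 239 CPM in CTRL livers (−0.91, edgeR adjusted p = 0.0435). Gbp7 had 4.99, 4.05 and 4.26 CPM in OPA1_LKO livers, against 7.65, 7.14, 7.10, 7.82 and 8.82 CPM in CTRL livers (−0.80, edgeR adjusted p = 0.0215). In each of these 3 genes all OPA1_LKO livers were below all CTRL livers, as in 8.41% of all tested genes. Irgm1 was not called without OPA1_LKO replicate 1 or 3 (edgeR adjusted p = 0.0980 and 0.0993). Gbp7 was not called without OPA1_LKO replicate 1, 2 or 3 or CTRL replicate 5 (0.0672, 0.0595, 0.0929 and 0.0584), and Iigp1 not without OPA1_LKO replicate 1, 2 or 3 or CTRL replicate 2, 4 or 5 (0.179, 0.0829, 0.178, 0.0904, 0.0777 and 0.0591). Ifng itself had at most 0.159 CPM in any library and was not tested.

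Of 11 transcription factors of class I and class II promoters, 2 were lower and 0 higher, beside 2.69% and 3.34% of all tested genes, and 6 log2 fold changes were negative. Irf1, which acts on interferon response elements, had 21.2, 26.7 and 23.2 CPM in OPA1_LKO livers, against 48.1, 46.7, 40.4, 28.0 and 35.5 CPM in CTRL livers. The groups did not overlap, and the log2 fold change was −0.75 (edgeR adjusted p = 0.0459). It was not called without OPA1_LKO replicate 1, 2 or 3 (edgeR adjusted p = 0.205, 0.0672 and 0.181) or CTRL replicate 2, 3 or 5 (0.0945, 0.0793 and 0.0754). Nfyb, a subunit of the factor that binds CCAAT, was lower at −0.57 (edgeR adjusted p = 0.0453) and was called without CTRL replicate 1 and not when any other library was left out (0.0506 to 0.197). Rfx5, which binds the X box of class II promoters, stood at 0.01 (0.978). On either TPM scale limma called none of Irgm1, Iigp1, Gbp7, Irf1 and Nfyb (for Irf1, adjusted p = 0.312 and 0.305).

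Among class I-like genes outside the complex, 1 of 7 was lower, beside 2.69% of all tested genes. This was Cd1d1, which presents lipids, with 84.8, 112 and 98.3 CPM in OPA1_LKO livers against 125, 236, 169, 259 and 260 CPM in CTRL livers. Its groups did not overlap (log2 fold change −1.09, edgeR adjusted p = 0.0348), and it was not called without OPA1_LKO replicate 1, 2 or 3 (0.169, 0.0631 and 0.138) or CTRL replicate 2, 4 or 5 (0.0737, 0.0685 and 0.0762). Among 10 genes of endosomal processing, 1 was higher, beside 3.34% of all tested genes. This was Ctsl, the protease cathepsin L, with 1503, 948 and 995 CPM in OPA1_LKO livers against 496, 388, 342, 627 and 512 CPM in CTRL livers. These groups did not overlap (log2 fold change 1.28, edgeR adjusted p = 0.0139, and 0.0805 without OPA1_LKO replicate 1). Of 6 loading partners 0 were changed in edgeR and 0 passed an unadjusted p under 0.05, with a median of −0.18. The chaperone Calr stood at 0.12 and its partner Pdia3 at −0.04. Of 5 tested costimulation and checkpoint genes 0 were changed in edgeR, with 1 lower and 1 higher at an unadjusted p under 0.05.

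The transcript table gave the shares of 32 transcripts within 11 members, which were compared by exact permutation, two-sided, with 56 possible divisions of the libraries. The lowest p was 0.0357, the smallest the design allows, and its adjusted p was 0.993. A single transcript at that p cannot pass an adjustment over 32 comparisons, so the count of 0 that passed says nothing about whether shares differed. An unadjusted p under 0.05 was found for 1 transcript.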

How the data were processed

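The labels place 3 liver samples in OPA1_LKO and 5 in CTRL. Per the labels' protocols, a column kit was used for total RNA and a stranded mRNA kit for the libraries. Per the submitters' processing notes, STAR, RSEM, StringTie and MultiQC were used with the mouse build mm10. Their versions and the annotation release are not stated there. In 4 tables the authors deposited expected counts per gene and per transcript, not normalised, and TPM per gene and per transcript, corrected for length and scaled to a fixed sum.

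Gene expected counts were rounded. The filter was filterByExpr at its defaults (minimum count 10, minimum total 15) and the scaling TMM. In edgeR 4.0.16 (R 4.3.3) a model with group alone was fitted and tested by quasi-likelihood, and Benjamini-Hochberg adjustment ran over 14036 genes at a threshold of 0.05. Each SE comes from dividing the fold change by the root of its F statistic. Intervals and floors cover counting error only. Alternatives were DESeq2 1.42.0, upper-quartile and relative log expression scaling, no filterByExpr, limma 3.58.1 on log2(TPM + 1) and log2(TPM + 0.1), limma-voom, a replicate block and single libraries left out; leaving out CTRL replicates 1 and 3 together was added after seeing the data. The edgeR steps were tested on simulated data with known changes. Of 50 genes changed at each size, 6% were recovered at 1.5-fold, 34% at 2-fold, 88% at 4-fold and 98% at 8-fold. Of 13836 unchanged genes, 8 were called. Most changes of 1.5-fold and 2-fold were missed, so a gene not called is not shown to be unchanged.

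The members and lists were chosen with earlier results of these data known, so no count over a list is independent support. The rule for named genes took all members with at least 15 counts, with values per library for the classical chains, B2m, the I-A and I-E chains, Cd74, Ciita, Nlrc5, the processing genes and changed members, and, of the 18 other lists, the 3 genes with the smallest p and those that define a cell type. Fewer list genes are named than it allows. Values per library of H2-Q10, H2-T22, H2-M2, H2-Oa, H2-Ob, H2-DMb2, H2-Q2 and H2-T3, and the 2 added lists, were chosen after they were seen. Replicate numbers in the titles were not treated as pairs. Promoter sequences are those of RefSeq for GRCm38.p6.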

Additional observations from a re-analysis of the deposited data

Results flagged for a closer look

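Among the 5 CTRL livers, a value was singled out where the gap to its nearest neighbour exceeded 0.71 of the whole range (Dixon's critical value). Of 55 genes examined 7 were singled out, 4 of them in CTRL replicate 3. The nominal rate of about 1 in 20 holds for independent, normally distributed values. The CPM were not log-transformed and the genes are not independent, so an excess over that rate was not measured. In CTRL replicate 3, H2-T3 reached 6.77 CPM, with 0.0686 CPM in the next CTRL liver. In the same library H2-Q2 reached 12.9 CPM, with 0.549 CPM next to it, and H2-Bl reached 3.30 CPM, with 0.401 CPM next to it. H2-Q5 stood at 2.01 CPM there, with 1.38 CPM in the next CTRL liver. In CTRL replicate 1, H2-DMb1 reached 21.3 CPM, with 8.25 CPM next to it, and Ifngr1, the interferon-gamma receptor, reached 23.3 CPM, with 16.2 CPM next to it. H2-Q7 was low in CTRL replicate 2, at 20.002 CPM, while the next lowest CTRL liver had 35.9 CPM.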

How the results depend on the processing

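The count of changed genes was 846, and 1692 with DESeq2, 560 with limma on log2(TPM + 0.1), 367 with the replicate block, 2919 without CTRL replicates 1 and 3, and 198 to 1701 when single libraries were left out. Changed class I members numbered 0, and 2 with DESeq2, 1 on log2(TPM + 1) and 1 without CTRL replicates 1 and 3, with 0 in every fit that left out a single library. Changed class II members numbered 0, and 1 with DESeq2, 2 on log2(TPM + 1), 7 without CTRL replicates 1 and 3, and 0 to 2 without single libraries. Changed processing members numbered 2, and 1 with upper-quartile scaling, 0 on either TPM scale, 1 with the replicate block, and 0 to 2 without single libraries. Changed genes of the other lists numbered 12, and 6 on either TPM scale, 36 without CTRL replicates 1 and 3, and 3 to 18 without single libraries. Same-numbered libraries correlated at 0.0720, 0.0537 and 0.175. OPA1_LKO replicates 1 and 3 correlated best with their own number and replicate 2 with CTRL replicate 5 (0.174). These low values do not decide whether the replicate numbers pair the samples. Psmb8 was negative in all 17 alternatives and called in 8, and Psmb9 in all 17 and called in 12. Over 37 members 625 values were computed, of which 548 kept direction and side of the threshold, 14 lost and 17 gained the call, and 46 changed sign; the cause was not tested. With upper-quartile scaling H2-D1 became 0.059, H2-M3 0.0047 and Nlrc5 0.018. On log2(TPM + 1) and log2(TPM + 0.1), H2-D1 became 0.17 and 0.17, H2-DMb1 0.29 and 0.35, H2-M3 0.10 and 0.16, and Nlrc5 0.088 and 0.12, and H2-Q2 became 0.30 on the second. With limma-voom H2-D1 became 0.0040, H2-DMb1 0.17, H2-M3 0.0053 and H2-Q2 0.64. With the replicate block H2-D1 became 0.043 and H2-DMa −0.077. Without CTRL replicates 1 and 3, H2-D1 became 0.10, H2-DMb1 0.63, H2-M3 0.28, H2-Q2 1.68, H2-T23 −0.029 and Nlrc5 0.12. Without single libraries the log2 fold change spanned −0.0025 to 0.85 for Cd74, −0.047 to 0.75 for H2-Ab1, −0.12 to 0.080 for H2-D1, −0.049 to 0.75 for H2-DMa, −0.33 to 0.54 for H2-DMb1, −0.041 to 0.46 for H2-K2, −0.25 to 0.24 for H2-M3, −2.23 to 1.61 for H2-Q2, −0.064 to 0.16 for H2-Q7, −0.054 to 0.13 for H2-T23, −0.66 to 0.072 for H2-T24 and −0.22 to 0.063 for Nlrc5. Members under 1 CPM rest on few counts.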
